A study of Mus musculus with 64 samples.

Results

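Variation between individual adult mouse livers carrying the same gender label was described here across 8028 autosomal genes. The genes were those with a mean of at least 10 CPM (reads of a gene scaled to a common total of reads on genes) over the 24 adult livers, out of 23338 genes listed in each count file and 22073 placed on an autosome. Just inside the limit was Lcmt2 at 10.003 CPM and just outside it Gpn2 at 9.998 CPM, and 38 further genes above it could not be placed on a chromosome and were left out. The 24 adult livers, 12 labelled M and 12 labelled F, were part of a series of 64 RNA-seq samples that also held fetal livers and other material. All of the adult mice were C57BL/6 animals (C57BL/6 J in the methods) with no treatment or transgene listed, and each library was made from total RNA of liver. They were kept on standard chow under 12 hours of light, were 15 to 20 weeks old, and were killed between 10 in the morning and 12 noon. The livers are named below by label and sample number, males 1 to 12 and females 13 to 24. Cage, litter, oestrous stage, time since the last meal and exact hour of death are not given in the sources used here.

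Liver gene expression follows several physiological cycles. In the circadian clock, the CLOCK and BMAL1 proteins (Clock and Arntl) drive Per, Dbp, Tef and Nr1d genes, and the PER and NR1D proteins in turn repress them, so Dbp transcripts climb through the light phase while Arntl transcripts decline. Feeding switches on fatty acid synthesis (Fasn) and, through the SREBP factors, cholesterol synthesis (Sqle), whereas fasting switches on fatty acid oxidation under PPARA (Cyp4a14) and raises Igfbp1. Inflammation makes hepatocytes secrete acute phase proteins (Saa1) under STAT3 and NF-kappaB, and immune cells in the tissue display antigen on MHC class II molecules with Cd74.

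Totals of reads on genes ran from 1608848 to 4757610 in the male and from 1567583 to 3043818 in the female libraries, and 7 libraries held under 2000000 reads. A count of 0 therefore allowed up to 0.631 to 1.91 CPM (3 reads, counting error only). Counted reads were those aligned to 1 place. The share of them that fell outside annotated genes was 28.0% to 35.2% in males and 25.7% to 36.6% in females. It was higher in smaller libraries (r = -0.73 with the library total, centred within label). Alignments to several places numbered 0.729 to 1.57 per counted read in males and 0.486 to 0.760 in females, and their part in the results was not tested. The X and Y linked transcripts Xist and Ddx3y matched the label in 24 of 24 livers. Hepatocyte markers (8 genes including Alb, Ttr and Cps1) summed to 48460 to 59600 CPM in males and 59240 to 74480 CPM in females. Markers of pancreas and skeletal muscle summed to at most 1.82 and 1.24 CPM, and those of fat to at most 2.85 CPM except 56.0 CPM in female 13. The labels and methods do not say which libraries shared a sequencing pool, so pool and liver cannot be told apart.

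Each gene's spread was taken as the standard deviation (SD) of log2(CPM + 0.5) around the mean of its label, pooled over both labels. The median gene had an SD of 0.221 (0.205 in males and 0.224 in females), and the central 90% of genes lay between 0.119 and 0.452. Counting error alone gave a median SD of 0.147, and it made up most of the variance in 3535 of the 8028 genes. Against that background 289 genes (3.6%) had an SD above 0.5 and 21 had an SD above 1. The hepatocyte list had a median SD of only 0.141, while the immediate early (0.749), glucocorticoid and metal response (0.664), heat shock (0.571), night clock (0.571), fasting (0.518), day clock (0.467), class II (0.453) and lipogenesis (0.444) lists had the largest medians among the process lists other than the gender-biased ones.

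The 20 most variable genes had SDs from 1.83 to 1.02, above the spread that counting error gave them. They included the clock genes Dbp and Per1, Rgs16 and Lrtm1, fasting and stress genes (Igfbp1, Lpin1, Hspa1b, Gadd45g), a growth hormone signalling pair (Cish, Bcl6), inflammatory and metal genes (Cxcl1, Mt1), and a group dominated by gender label (Moxd1, Serpina4-ps1, Serpina1e, Cyp3a16, Sult2a1, Mup12, Cyp4a14). These groups follow what the genes are known for and say nothing of whether they moved together. Since the genes were chosen for their spread, the spread itself is given without a test.

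Moxd1 (chr10:24223517-24302783), a copper-dependent monooxygenase relative, was the most variable gene. It ran from 0.608 to 150 CPM with a median of 29.0 CPM in males, and was at or under 0.572 CPM in every female, so its spread came from the male livers alone. Cyp3a16 and Sult2a1, a cytochrome P450 and a sulphotransferase of female liver, showed the reverse, with 5.43 to 293 CPM and 6.71 to 263 CPM in females against at most 0.622 CPM and 0.274 CPM in males. Serpina1e, an alpha-1-antitrypsin gene (chr12:103946932-103956897), lay between 2685 and 5226 CPM in males. Its female values ran from 31.4 to 3103 CPM with a median of 241 CPM, and the highest, in female 18, fell inside the male range. Members of the Serpina1, Mup, Cyp3a, Cyp4a, Sult2a, Saa and Hspa1 families have near-identical copies whose reads may be lost or split in counting, so their single-gene values are uncertain.

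Igfbp1 (chr11:7197782-7202546), the fasting-induced binding protein of insulin-like growth factors, ranged from 2.74 to 186 CPM in males (median 62.3) and from 18.2 to 338 CPM in females (median 123). Males 2 and 4 held the lowest values, and the labels overlapped. Hspa1b, an inducible HSP70 chaperone, ranged from 3.50 to 134 CPM in males (median 35.8) and from 1.72 to 23.2 CPM in females (median 7.41). Males 6 and 9 were highest and males 2 and 4 lowest for Hspa1b as well. Lpin1, a phosphatidate phosphatase and coactivator induced by fasting, spanned 53.5 to 735 CPM in males and 70.7 to 533 CPM in females.

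Cish (chr9:107296026-107302784), which growth hormone induces through STAT5 and whose protein damps that signal, ran from 0.622 CPM in male 11 to 34.7 CPM in male 12, and from 3.25 to 20.5 CPM in females. Bcl6 (chr16:23965052-23988612), a repressor that STAT5 holds down, ran from 7.51 CPM in male 12 to 70.3 CPM in male 11, and from 1.92 to 33.4 CPM in females. The livers at the male extremes of Cish were thus the reverse extremes of Bcl6. The low Cish value of male 11 is uncertain, since it lay under the 1.86 CPM that 3 reads made in that library. Across the 24 livers, centred within label, their correlation was r = -0.793 and rho = -0.792. Both permutation p-values were 1e-05, the smallest that 100000 shuffles within label can give (adjusted p = 0.000633 over 190 pairs), with r = -0.825 in males, -0.80 in females and -0.788 without the livers farthest from the median.

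**Figure D1:**
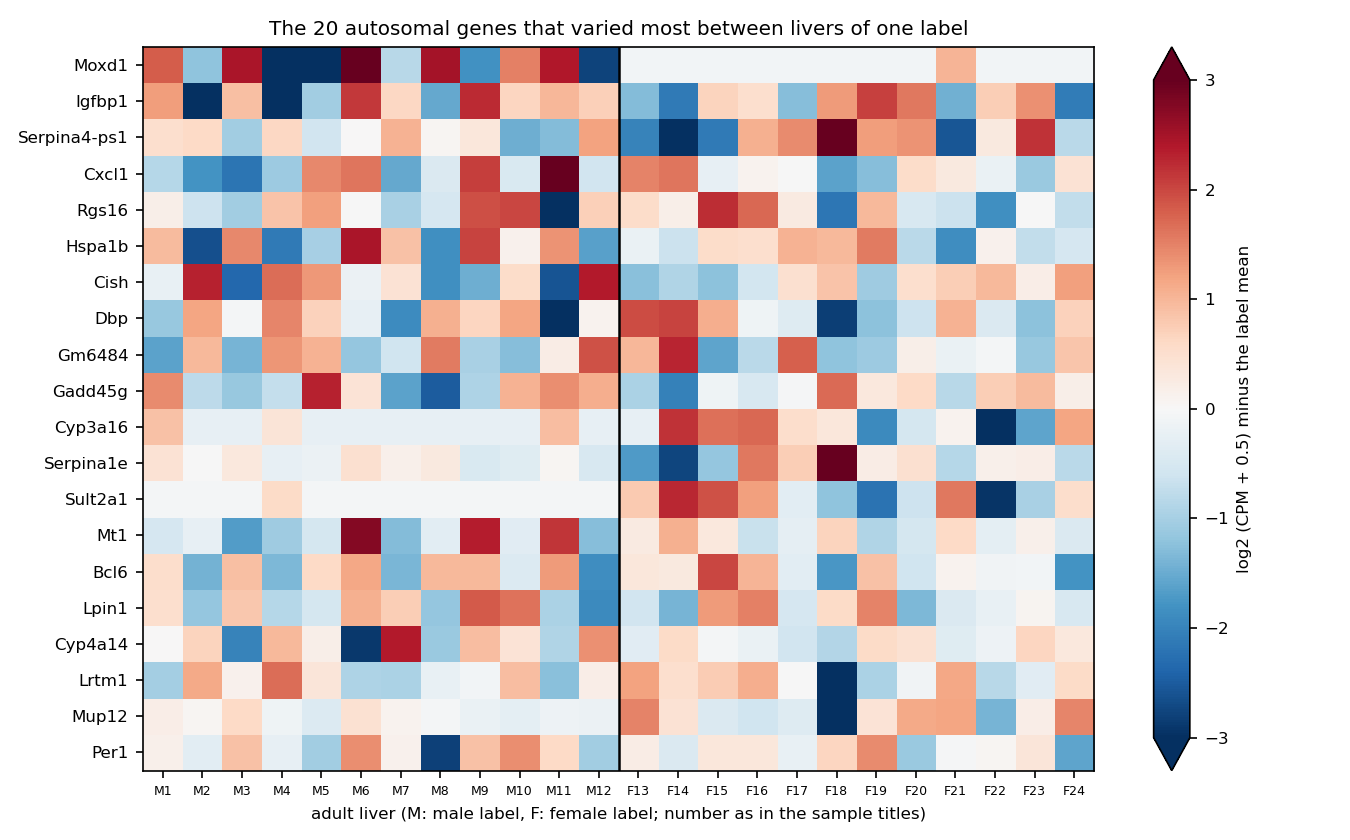
Deviation of the 20 most variable autosomal genes (rows, from the largest SD down) from their label mean, in log2(CPM + 0.5), in each of the 12 male and 12 female adult livers (columns). Colours saturate at 3 in either direction. Moxd1 varied mainly among males, Cyp3a16 and Sult2a1 among females, and Cish and Bcl6 took opposite colours in most livers.

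Among the 190 pairs of these genes, 27 passed an adjusted permutation p of 0.05 by r (13 positive, 14 negative) and 23 by rho. Dbp and Lrtm1 moved together (r = 0.843, rho = 0.87, both permutation p = 1e-05, adjusted p = 0.000633, r = 0.788 without the 2 farthest livers). Lpin1 moved with Per1, a clock gene that glucocorticoids also induce (r = 0.725, permutation p = 9e-05, adjusted p = 0.00271; rho = 0.795, adjusted p = 0.00142), and against Gm6484 (r = -0.844, permutation p = 1e-05, adjusted p = 0.000633; rho = -0.809). Igfbp1 moved with Hspa1b (r = 0.733, permutation p = 0.0001, adjusted p = 0.00271; rho = 0.679), with r = 0.882 in males and 0.423 in females. Cxcl1, a neutrophil attractant, and Mt1, a metallothionein, had r = 0.721 (permutation p = 0.00129, adjusted p = 0.0175), but the adjusted p for rho was 0.0867. Of 40 pairs of these genes with the library total or the share of reads outside genes, 0 passed by r and 0 by rho, with permutation tests over 24 livers.

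Which genes moved together was then measured against 6 anchor genes, each standing for a process. For every gene, edgeR's quasi-likelihood test estimated a slope, the log2 change per doubling of the anchor among livers of the same label, and a gene is said below to rise or fall with the anchor where its Benjamini-Hochberg adjusted p over all 10360 genes was under 0.05. An association of this kind does not order the genes.

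For the clock, Dbp (chr7:45705088-45710203), which encodes a D-box binding factor, ranged from 3.11 CPM in male 11 to 80.4 CPM in male 4 (median 38.0) and from 2.39 CPM in female 18 to 82.9 CPM in female 14 (median 16.7). The labels overlapped over nearly their whole ranges. With Dbp rose 169 of 8025 members, where 1.78% of all genes tested rose, and 75 fell, where 0.792% did. Of the other 8 day clock genes 5 rose, among them Per3, Tef, Per2 and Nr1d2, and 0 fell, with a median slope of 0.18 against 0.00051 over all members. Of the 4 night clock genes Arntl and Clock fell, with a list median of -0.20.

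Per3, a period gene, rose by 0.66 ± 0.057 (SE, n = 24 livers) per doubling of Dbp (adjusted p = 4.24e-09). It stood between 6.27 and 47.9 CPM in males and between 4.79 and 41.0 CPM in females, with its female minimum and maximum in the same livers as those of Dbp. Tef, a D-box factor related to Dbp, rose by 0.34 ± 0.031 with the same adjusted p. Arntl ran from 7.01 to 32.2 CPM in males and from 8.26 to 50.3 CPM in females, highest in female 18 where Dbp was lowest. Its slope was -0.40 ± 0.063 (adjusted p = 0.00055). The slopes of Per1 (-0.14), Nr1d1 (0.11), Hlf (0.094), Cry1 (-0.14) and Nfil3 (-0.27) did not pass the test.

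The promoters of 8 clock genes (Dbp, Per1, Per3, Tef, Nr1d1, Nr1d2, Arntl and Clock) were searched for letters that clock factors are known to bind. The 250 bases before an annotated start are printed 5′ to 3′ on the gene's strand, from RefSeq on GRCm38.p6, with the matches in capitals. Both strands were searched for the E-box CACGTG, present in 6.02% of 32851 promoters of this length, and the D-box TTATGTAA or TTACGTAA, present in 0.931%. An E-box was found in Per1 and Tef and a D-box in Per3, and the other 5 promoters, that of Dbp included, held neither in this window. A match is a description of the sequence and not evidence of binding. Per3 and Tef are shown as the clock genes that rose and held a match. Per3 held 2 D-boxes (chr4:151044666-151044915, minus strand) and Tef held 1 E-box (chr15:81802423-81802672, plus strand, before a start that lies inside the gene).
Per3: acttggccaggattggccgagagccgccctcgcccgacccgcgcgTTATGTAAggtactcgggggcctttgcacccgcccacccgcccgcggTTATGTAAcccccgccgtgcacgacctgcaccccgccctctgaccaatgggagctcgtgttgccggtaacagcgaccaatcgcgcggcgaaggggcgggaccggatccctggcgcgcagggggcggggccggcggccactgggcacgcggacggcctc
Tef: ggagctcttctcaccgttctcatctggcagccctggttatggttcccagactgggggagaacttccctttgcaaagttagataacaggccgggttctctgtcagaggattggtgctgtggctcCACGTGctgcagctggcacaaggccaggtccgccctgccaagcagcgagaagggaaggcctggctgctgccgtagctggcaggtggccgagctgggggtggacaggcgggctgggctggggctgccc

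Outside the clock lists, the members with the smallest adjusted p for Dbp were enzymes and fibrinogen chains. Cyp2a22, a cytochrome P450 (slope 0.62), Inmt, a methyltransferase (0.23), and Akr1d1, a bile acid reductase (0.16), rose. The fibrinogen genes Fga (-0.14), Fgb (-0.13) and Fgg (-0.14) fell, and they belonged to 9 of 25 acute phase members that fell with Dbp (the others were Hp, Hpx, Itih3, Cp, Lbp and Lrg1). Of 8 hepatocyte markers 3 also fell with Dbp (Apoa1, Serpina1a and Fgb) and 0 rose, and the part of hepatocyte content in these slopes was not tested. Fgg ranged from 2702 to 4799 CPM in males, highest in male 11, and from 3094 to 5118 CPM in females, highest in female 18, the livers lowest in Dbp. Without those 2 livers 104 members were called for Dbp in place of 244, and 77 of these were shared; Per3, Tef, Arntl and the 3 fibrinogen genes still passed. There were 155 calls without female 18, 165 without male 11 and 88 without the 7 libraries under 2000000 reads. With Nr1d1 as the anchor in place of Dbp only 2 members were called, neither of them shared.

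For fatty acid synthesis, Fasn (chr11:120805846-120824547), the fatty acid synthase, ranged from 400.5 to 1628 CPM in males and from 337 to 1454 CPM in females. The lowest liver was female 18. With Fasn rose 30 members (0.328% of all genes tested rose) and 12 fell (0.125%). Of 18 other lipogenesis genes 5 rose: Pklr, pyruvate kinase (0.65), Acly, ATP citrate lyase (0.49), Gpam, glycerol-3-phosphate acyltransferase (0.38), Fads1, a desaturase (0.20), and Aacs, acetoacetyl-CoA synthetase (0.84). The list's median slope was 0.40 against -0.0071 over all members. Of 23 cholesterol synthesis genes 10 rose with Fasn, among them Stard4 (0.40) and Sc5d (0.37). The major urinary protein gene Mup20 (-0.48) and the complement genes C6 (-0.34) and C9 (-0.31) fell. These calls turned on female 18, since without it 0 members were called for Fasn by edgeR's quasi-likelihood test, with 692 at an unadjusted p under 0.05, although the list's median slope was still 0.34.

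For cholesterol synthesis, Sqle (chr15:59315092-59331193), squalene epoxidase, ranged from 41.8 to 92.8 CPM in males and from 39.1 CPM in female 18 to 146 CPM in female 16. With Sqle rose 50 members (0.531% of all genes tested rose) and 10 fell (0.116%). Of the other 22 members of its pathway list 17 rose and 0 fell, with a median slope of 0.56 against -0.0095 over all members. They covered the route from the entry enzyme Hmgcs1 (1.12 ± 0.14, adjusted p = 5.035e-05) through Mvk, Pmvk and Mvd (0.96), Idi1, Fdps and the squalene synthase Fdft1 (0.91 ± 0.096, adjusted p = 4.93e-07) to the sterol-modifying Lss, Cyp51, Sc4mol, Tm7sf2, Hsd17b7, Sc5d and Dhcr7. Hmgcs1 ranged from 378 to 865 CPM in males and from 294 to 1625 CPM in females, lowest in male 6 and female 18, which were also lowest for Sqle. Insig1 (0.51) and Srebf2 (0.21) were among the 5 that did not pass. Outside the list Pklr (0.97), the water channel Aqp8 (1.05) and the retinol dehydrogenase Rdh11 (0.80) rose, and Acmsd (-0.96), B4galt5 (-0.52) and Mup20 (-0.57) fell. Without female 18 there were 25 calls, 22 of them shared, and 11 of the 22 pathway members rose. Without female 18 and male 6 there were 10 calls, of which 6 were pathway members.

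The Hmgcs1 promoter (chr13:119690101-119690350, plus strand, GRCm38.p6, RefSeq) held 1 match to the sterol element TCACNCCAC, which 1.05% of promoters hold on either strand. Of 12 pathway members searched it was the only one with a match in this window, and Hmgcs1 also had the steepest slope of the list.
Hmgcs1: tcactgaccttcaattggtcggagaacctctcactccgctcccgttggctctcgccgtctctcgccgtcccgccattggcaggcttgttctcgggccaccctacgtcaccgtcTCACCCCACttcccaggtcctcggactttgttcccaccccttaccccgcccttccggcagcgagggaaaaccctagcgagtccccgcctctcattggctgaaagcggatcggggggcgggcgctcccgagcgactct

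For PPARA targets, Cyp4a14 (chr4:115486200-115496141), a fatty acid omega-hydroxylase, ranged from 4.09 to 179 CPM in males and from 380 to 1093 CPM in females, without overlap between labels. Among the members only the neighbouring paralogue Cyp4a10 (chr4:115518287-115533649) rose with it, by 0.57 ± 0.049 (adjusted p = 1.31e-08, r = 0.94 in males and 0.92 in females), where 0.0193% of all genes tested rose. No member fell by edgeR's quasi-likelihood test (0% of all genes tested), with 247 members falling at an unadjusted p under 0.05 and 0 by DESeq2. The other 22 of 23 list members, which include Cpt1a and Plin2, did not pass.

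For the acute phase, Saa1 (chr7:46740499-46742980), serum amyloid A, stood at 245 CPM in male 11, 75.4 CPM in male 6 and 70.2 CPM in male 9. The other 9 males had 11.8 to 31.2 CPM and the females 8.21 to 24.3 CPM. With Saa1 rose 44 members (0.454% of all genes tested rose) and 21 fell (0.27%). Of the other 24 acute phase members 14 rose, with a median slope of 0.18 against 0.00024 over all members. Saa2, its near-identical neighbour, rose by 1.00 ± 0.077 (adjusted p = 2.25e-10). Steap4, a metalloreductase, rose by 0.57 ± 0.052 (adjusted p = 5.83e-08) and stood at 799, 402 and 516 CPM in males 11, 6 and 9, above the 142 to 245 CPM of all other livers. Orm2 (0.66), Il1r1 (0.41), Lbp (0.39), Stat3 (0.25) and Hp (0.23) rose as well, and outside the list Icam1, a leukocyte adhesion molecule (0.68), Bcl3, an NF-kappaB cofactor (0.50), and Acnat2 (0.45).

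Male 11 was also highest for Cxcl1, at 138 CPM against 1.62 to 40.4 CPM in the other males. Neutrophil markers (6 genes) summed to 7.47 CPM in male 11, the highest of the 24 livers, with 1 marker at 0 in every liver. In that library 3 reads made 1.86 CPM, so the sum rests on few reads. None of these markers reached the limit for members, and their part in the result was not tested. Without male 11 the calls for Saa1 numbered 139, of which 36 were shared, and only 4 acute phase members rose. Without males 11 and 6 there were 55 calls and 15 were shared, and without the 7 libraries under 2000000 reads, which include male 11, 57 calls and 19 shared. In the 12 females alone 0 members were called by edgeR's quasi-likelihood test, with 529 at an unadjusted p under 0.05.

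The Icam1 promoter (chr9:21015690-21015939, plus strand, GRCm38.p6, RefSeq) held 1 kappaB match, GGAAATTCC. The kappaB set searched on both strands was GGAAATTCC, GGGATTTCC and the site of the immunoglobulin kappa enhancer, and 0.706% of promoters hold a match to it. Of 8 inflammatory genes searched Icam1 and Cxcl1 held a match, and Saa1, Saa2, Steap4, Bcl3, Stat3 and Orm2 held none in this window. The Bcl6 window (chr16:23981284-23981533, minus strand, before a start inside the gene) held 3 matches to the STAT pair TTCNNNGAA, which 7.02% of promoters hold, and is shown for the inverse relation of Bcl6 to Cish, whose own promoter held no match in this window.
Icam1: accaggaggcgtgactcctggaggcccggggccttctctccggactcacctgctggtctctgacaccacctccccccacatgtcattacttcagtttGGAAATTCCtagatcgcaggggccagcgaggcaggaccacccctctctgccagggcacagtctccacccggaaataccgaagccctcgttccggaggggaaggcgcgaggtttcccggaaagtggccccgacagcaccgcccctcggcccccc
Bcl6: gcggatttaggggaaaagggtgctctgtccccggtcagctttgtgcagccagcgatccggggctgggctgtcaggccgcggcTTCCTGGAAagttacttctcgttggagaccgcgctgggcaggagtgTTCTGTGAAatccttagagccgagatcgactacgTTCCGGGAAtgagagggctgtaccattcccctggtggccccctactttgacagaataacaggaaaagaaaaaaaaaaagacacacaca

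For antigen presentation, Cd74 (chr18:60803848-60812652), the class II invariant chain, stood at 144 CPM in female 18 and otherwise at 42.2 to 90.6 CPM in females and 30.8 to 86.3 CPM in males. With it rose 4 members (0.0386% of all genes tested rose) and 0 fell (0% of all genes tested; 301 members fell at an unadjusted p under 0.05 and DESeq2 called 2). The class II chains H2-Aa (1.03 ± 0.11), H2-Ab1 (0.99) and H2-Eb1 (1.15) rose nearly in proportion, and the collagen gene Col5a2 rose by 1.38 ± 0.23. Col5a2 was at 74.6 CPM in female 18 against at most 20.3 CPM in the other females and 4.95 to 11.03 CPM in males. Without female 18 the 3 class II chains still rose, while the Cd74 slope of Col5a2 was 0.39 and did not pass (edgeR adjusted p = 0.995). Marker sums of T and NK cells (9.97 CPM) and of B cells (14.8 CPM) were also highest in female 18. In bulk tissue, more cells of a type and more RNA per cell cannot be told apart.

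**Figure D2:**
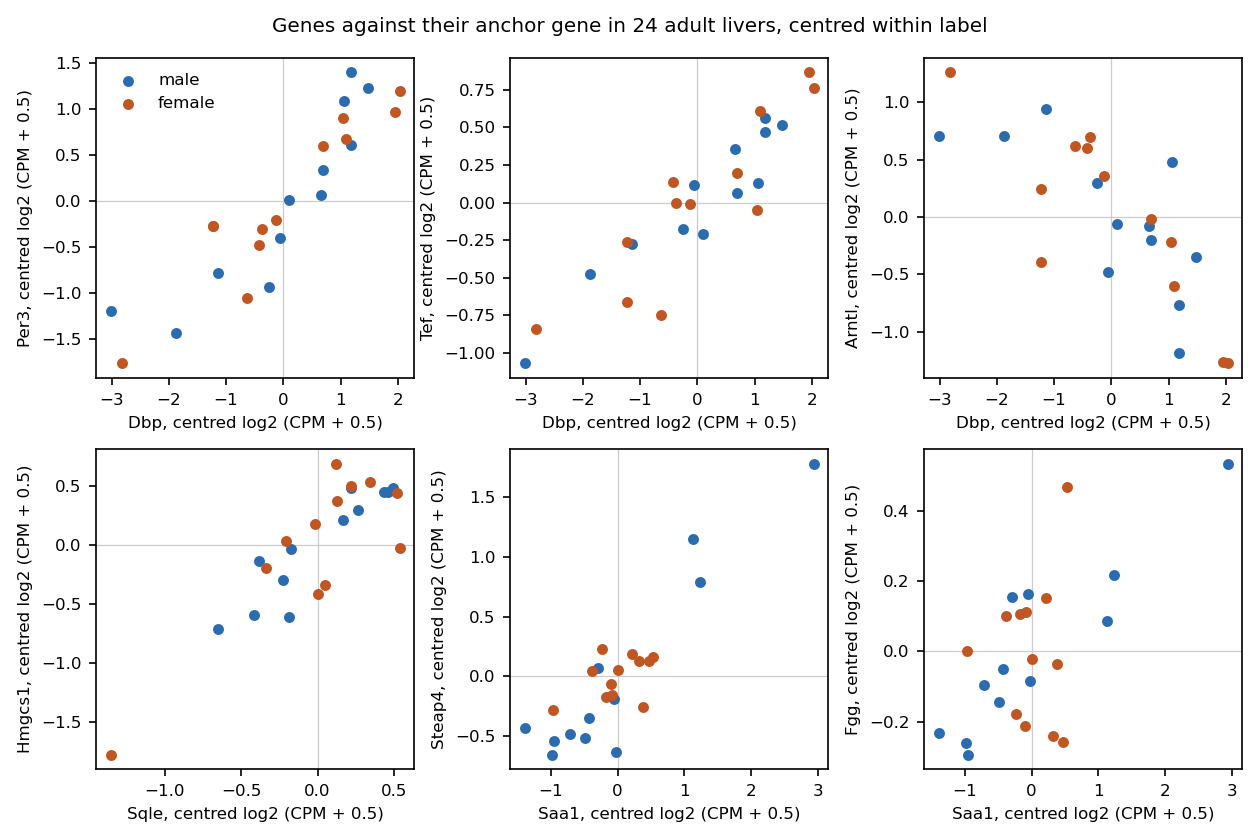
Genes against their anchor in 24 adult livers (12 male, 12 female), both axes in log2(CPM + 0.5) centred within label. Per3 and Tef climbed and Arntl declined with Dbp in both labels, Hmgcs1 climbed with Sqle with 1 female far below, and Steap4 was highest in the 3 males highest in Saa1.

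The anchors themselves were related in few cases. Of 27 pairs among the anchors and with the library total and outside share, 3 passed an adjusted permutation p of 0.05 by r and 1 by rho. Fasn and Sqle had r = 0.803 (permutation p = 5e-05, adjusted p = 0.00135) and rho = 0.724 (permutation p = 0.00016, adjusted p = 0.00432), with r = 0.767 in males, 0.849 in females and 0.709 without the 2 farthest livers. Dbp and Fasn had r = 0.561 (permutation p = 0.0052, adjusted p = 0.0468) but rho = 0.462 (adjusted p = 0.166), and r = 0.352 without male 11 and female 18. Sqle and Saa1 had r = -0.487 (permutation p = 0.00471, adjusted p = 0.0468) and rho = -0.548 (adjusted p = 0.0767), with -0.479 without the 2 farthest livers.

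**Figure D3:**
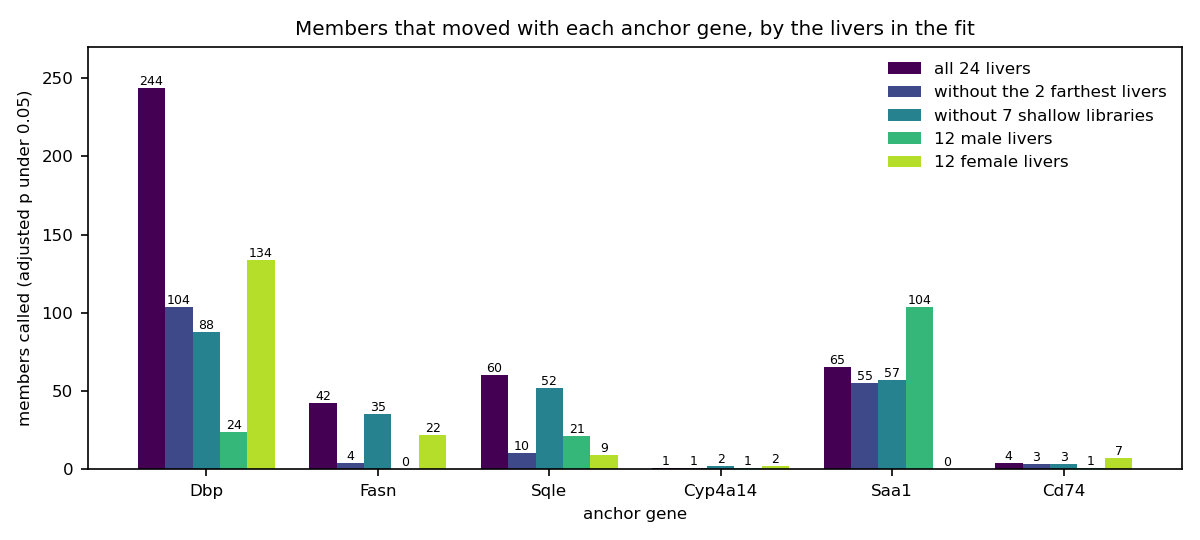
Number of members called (adjusted p under 0.05, edgeR's quasi-likelihood test) for each anchor gene with all 24 livers, without the 2 livers farthest from the label median of the anchor, without the 7 libraries under 2000000 reads, and in the 12 males or the 12 females alone. Calls for Dbp fell from 244 to 24 in males and 134 in females, and those for Saa1 were 104 in males and 0 in females.

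Whether a slope differed between labels was tested by an interaction term. For Dbp 6 members passed (0.0676% of all genes tested). Aldh1a1, a retinal dehydrogenase, Cyp4v3, a cytochrome P450, and Ugdh, UDP-glucose dehydrogenase, had slopes of 0.34, 0.14 and 0.20 in females against 0.028, -0.085 and -0.072 in males. The other members were Abca8a, Orm1 and Serpina1e, the last with a slope of -1.12 in females and -0.10 in males. Aldh1a1 ranged from 1589 to 2192 CPM in males but from 604 to 2129 CPM in females, lowest in female 18. All 6 calls were lost without male 11 and female 18, where 0 passed by edgeR's quasi-likelihood test and 752 members had an unadjusted p under 0.05. For the other 5 anchors 0 members passed (0% of all genes tested). Their unadjusted p was under 0.05 in 432 members for Fasn, 520 for Sqle, 614 for Cyp4a14, 688 for Saa1 and 872 for Cd74, while DESeq2 called 10, 12, 17, 0 and 0.

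Genes were also tested against the library measures. With the library total 27 members rose (0.28% of all genes tested) and 45 fell (0.589%), or 16 and 71 with DESeq2's size factors, led by Atp5e (0.43 per doubling of reads), Rps27a (0.35) and Brp44 (0.29) upward and Prg4 (-1.04), Rtp3 (-0.64) and Ubap2l (-0.53) downward. With the share of reads outside genes 644 members rose (7.19% of all genes tested) and 742 fell (7.55%), far more than with any anchor. With DESeq2's size factors the balance turned, to 722 rises and 573 falls. Reep6 (0.117 log2 per percentage point) and Sec24a (0.107) were among the leading rises, and Atp5e (-0.077), Rpl9 (-0.057) and Rps14 (-0.056) led the falls. Of the 18 genes among the 20 most variable that could be tested, 0 were called for either library measure. With both measures added as covariates the Dbp axis held 304 calls, 211 of them shared.

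Correlation within the process lists was described next. The median pairwise r, centred within label, was 0.0048 over all pairs of members. It was 0.855 for 14 endoplasmic reticulum chaperones (0.931 in males, 0.684 in females) and 0.817 for 5 class II genes (0.67 and 0.85). For 11 heat shock genes it was 0.73 (0.904 and 0.341) and for 23 cholesterol synthesis genes 0.651 (0.729 and 0.658). Night clock (0.538) and lipogenesis (0.532) genes came next, then 25 acute phase genes at 0.481 (0.656 and 0.139). Among the lists that lay lower were PPARA targets (0.387), interferon response genes (0.383) and fasting genes (0.344). Male 9 held the highest level of Hspa5, the BiP chaperone (3826 CPM against 886 to 2352 CPM in the other males), and of Creld2 (367 CPM). Males 9 and 6 held the highest Hsph1, at 294 and 278 CPM against 28.5 to 141 CPM in the other males. In females Hsph1 ran from 29.2 to 132 CPM, so both males stood above every female.

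**Figure D4:**
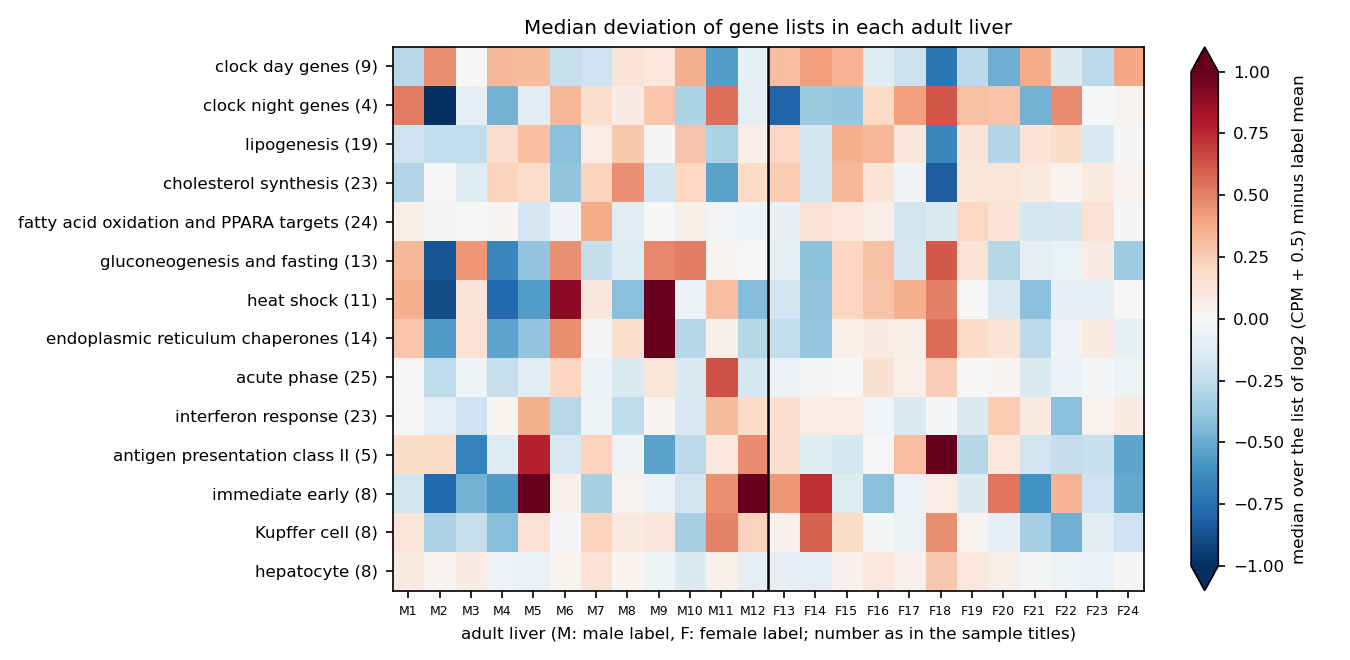
Median deviation from the label mean, in log2(CPM + 0.5), of each gene list (rows, number of genes in brackets) in each adult liver (columns). Day and night clock genes took opposite colours in most livers, heat shock and chaperone genes were highest in male 9, acute phase genes in male 11, and class II genes in female 18.

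The first principal component of the centred values over all members held 17.3% of the variance and the second 14.7%. At the high end of the first stood Hspa1b, Igfbp1, Hsph1, Lpin1 and Moxd1 and at the low end Cish, Gm6484, Gbp11, Rnf152 and Hhex. Of the heat shock list 10 of 11 genes and of the chaperone list 13 of 14 had r above 0.5 with it, against 1145 of 8028 members. Dbp, Sult2a1, Sult2a2, Lrtm1 and Cyp3a16 loaded highest on the second, and Igfbp1, Serpina4-ps1, Sik1, Gadd45g and Hspa1b lowest. Both components moved with the share of reads outside genes, with r = -0.575 for the first (permutation p = 0.00231, rho = -0.63) and r = -0.689 for the second (permutation p = 0.00095, rho = -0.613), adjusted p = 0.00367 for each r over 4 pairs. The second also moved with the library total (r = 0.558, permutation p = 0.00275, adjusted p = 0.00367, rho = 0.522), and the part of sequencing in these components was not tested.

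The spread of whole livers was compared next. The root mean square deviation from the label mean over all members was 0.257 ± 0.041 (SD, n = 12) in males and 0.270 ± 0.034 in females, a difference of -0.013 (two-sided permutation p = 0.401) that did not pass the test. The 24 late gestation fetal livers of the same strain were thinned to the median adult total of the same label and compared over 7489 shared genes. Adult livers stood farther from their label mean, at 0.247 ± 0.035 (n = 24) against 0.184 ± 0.044 (difference 0.063, permutation p = 1e-05, the smallest possible). With all libraries thinned to the smallest adult total the difference was 0.054, with the same permutation p. Thinning evened only the reads on genes. The share outside genes was 34.1% to 49.0% in fetal and 25.7% to 36.6% in adult libraries. Alignments to several places numbered 0.303 to 0.399 per counted read in fetal and 0.486 to 1.57 in adult libraries. The part of these library differences in the result was not tested. The larger SD was in adults for 78.9% of these genes. It was so for 14 of 14 chaperones, 8 of 8 heat shock genes and 22 of 23 cholesterol synthesis genes. Lists under the share of all genes included interferon response genes (5 of 17), acute phase genes (9 of 18) and PPARA targets (11 of 20).

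**Figure D5:**
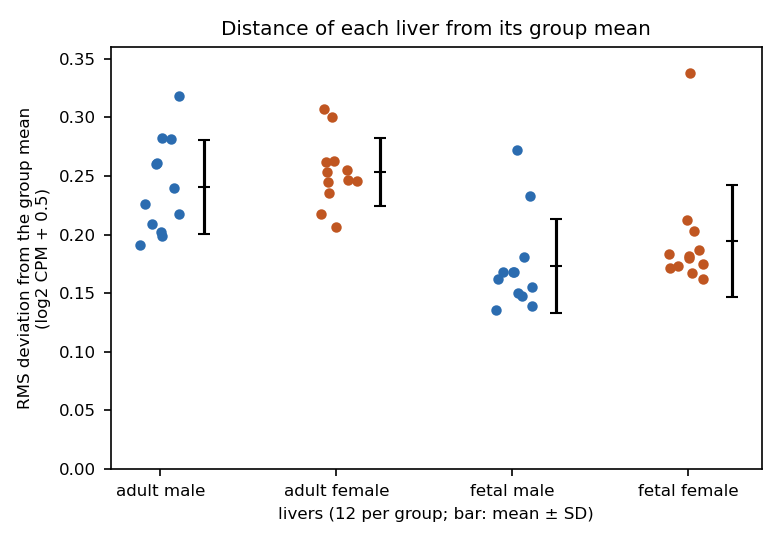
Root mean square deviation of each liver from its group mean, over 7489 genes in log2(CPM + 0.5), for 12 adult male, 12 adult female, 12 fetal male and 12 fetal female livers, with bars for mean ± SD. Most adult livers lay above most fetal livers, and 1 fetal female stood at 0.338.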

How the data were processed

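Strand-specific total RNA libraries of liver had been sequenced in pools of 12. According to the submitters' processing notes and the study's methods, reads were mapped to mm10 with TopHat2 2.0.4, Bowtie2 2.1.0 and SAMtools 0.1.18, duplicates were removed with Picard, and reads were assigned to genes with HTSeq, which leaves out reads that align to several places. The authors deposited the result as raw counts per gene, 1 file for each sample. Lines that name no gene stayed out of totals and tests. Reads outside genes were 25.7% to 36.6% of the counted reads of an adult library, which leave out alignments to several places. Removing duplicates lowers the counts of the most abundant genes. Genes were placed on GRCm38 by symbol (19564 by GENCODE, 201 by RefSeq symbol, 1854 by RefSeq synonym and 1497 by the study's tables, with 222 unplaced).

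From these, TMM-normalised log2(CPM + 0.5) was centred within gender label. Axis genes were tested in R 4.3.3 with edgeR 4.0.16 (quasi-likelihood test, label plus the anchor's centred log2 CPM, filterByExpr, Benjamini-Hochberg adjusted p under 0.05), which kept 8026 of the 8028 members. DESeq2 1.42.0 was the alternative tool. Correlations used 100000 permutations within label in Python 3.11.15 with numpy 2.4.6. The edgeR and DESeq2 slope fits, with Dbp as the covariate, and the pooled SD were tested on simulated data, and the other steps were not. Same-label libraries were compared in 132 pairs and differed by more than counting noise in each (chi-square per degree of freedom 1.91 to 12.8). No 2 files of a label were thus repeat reads of 1 library. The comparison cannot tell whether 2 libraries came from 1 animal, and all 24 were taken as separate samples from their labels. Nothing beyond the labels says whether animals shared a litter or cage, and p-values measure the spread between these samples.

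Genes were named by rule: the 20 with the largest pooled SD, the anchors and called members of their lists, the 3 with the smallest adjusted p in each direction outside the list and for each library measure, the 3 leading interactions, and the 5 strongest loadings at each end of both components. Some genes that meet this rule are not reported here. Lists of other processes were counted only. The members, anchors and gene lists were chosen with earlier results of these data known. Other values named in the text were chosen after they were seen. Alternatives were another tool, normalisation, filter, anchor, pseudocount and covariates, and fits without particular livers; leaving out female 18, male 11 or the 7 libraries under 2000000 reads was chosen after seeing the data.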

Additional observations from a re-analysis of the deposited data

Results flagged for a closer look

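Tests of the difference between labels called 6 members, all for slopes on Dbp, and the 3 of smallest unadjusted p are given here. The slope of Aldh1a1 was lower in males by -0.31 log2 per doubling of Dbp (male minus female, SE 0.047; edgeR adjusted p = 0.00205), that of Cyp4v3 by -0.22 (SE 0.040; adjusted p = 0.0165) and that of Ugdh by -0.27 (SE 0.052; adjusted p = 0.0245). Female 18, with the lowest Dbp of all livers (2.39 CPM), had the lowest value of all females for each of the 3 genes, at 604, 323 and 92.9 CPM. Without female 18 and male 11 none of them passed. The part of this liver's other differences in the result was not tested.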

How the results depend on the processing

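Calls for the anchors were counted in 244 members for Dbp, 42 for Fasn, 60 for Sqle, 1 for Cyp4a14, 65 for Saa1 and 4 for Cd74. The DESeq2 Wald test called 119 for Fasn, 112 for Sqle, 123 for Saa1, 8 for Cd74 and 137 for the library total (72 by edgeR), and for the interactions 22 on Dbp, 10 on Fasn, 12 on Sqle and 17 on Cyp4a14. Without the 2 livers farthest in the anchor there were 104 calls for Dbp, 4 for Fasn, 10 for Sqle and 0 for the Dbp interaction. In males alone there were 24 for Dbp, 0 for Fasn (850 at an unadjusted p under 0.05), 21 for Sqle, 104 for Saa1, 1 for Cd74, 0 for the library total (612) and 27 for the outside share, and in females alone 134, 22, 9, 0 for Saa1, 7 for Cd74, 22 for the library total and 737 for the outside share (1386 in all livers), with 2 for Cyp4a14. A second anchor gave 2 calls for Nr1d1, 0 for Pdk4 (682 at an unadjusted p under 0.05) and 2 for Orm2, and adding the library measures gave 28 for Saa1. Leaving out female 18 or male 11 gave 155 to 165 calls for Dbp, 0 to 32 for Fasn, 25 to 52 for Sqle, 66 to 139 for Saa1 and 3 to 5 for Cd74. Without the 7 libraries under 2000000 reads there were 88 calls for Dbp and 2 for Cyp4a14, and the first component held 20.2% of the variance. The median SD was 0.159 after a variance stabilizing transformation and 0.184 for genes of at least 30 CPM, where the components held 20.6% and 17.4%. Correlations that passed fell from 3 to 1 with a pseudocount of 2 CPM and to 1 without the 2 farthest livers. In females alone the Saa1 slope of Orm1 (-0.112), the Saa1 slope of Saa4 (-0.0855), the Saa1 slope of Serpina3n (-0.0948) and the Saa1 slope of Stat3 (-0.0544) reversed. These 4 were changes of sign only, since no slope on Saa1 passed in females. Saa1 had an SD of 0.425 in females against 1.215 in males. The interaction test called 0 members for Saa1 (smallest edgeR adjusted p = 0.461), so a difference between labels was not shown. Over all named slopes and alternatives, 602 values kept their side of the threshold and 239 lost it. Size factors and the filter changed no total of calls by over 1.5 times, but size factors gave 16 rises and 71 falls with the library total. The cause of these changes was not tested. No paired analysis was possible because males carry the numbers 1 to 12 and females 13 to 24, so the labels share none.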

Other observations

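Genes of the cytosolic ribosome, named for their symbols (Rpl and Rps) after their values were seen, moved with the share of reads outside genes. Of 75 such members tested 60 fell and 0 rose by edgeR's quasi-likelihood test, with a median slope of -0.037 log2 per percentage point against -0.0050 over all members, where 7.19% of all genes tested rose and 7.55% fell. With DESeq2's size factors 58 fell and 0 rose, and in the 12 males alone 1 fell, with a median slope of -0.039.

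Macrophage and fetal comparisons held further values. The 8 Kupffer cell markers among the members, such as Clec4f and C1qa, had a median pairwise r of 0.789. All 11 listed markers together summed to 409 to 721 CPM in males and 533 to 1119 CPM in females, highest in female 14. The 16 listed immediate early genes, such as Jun, Junb and Ier2, summed to 116 to 471 CPM in males and 112 to 288 CPM in females, with male 5 highest. Of these genes 8 were members. Among members compared with fetal livers, 7 of 7 had the larger SD in adults, where 78.9% of all 7489 genes compared did.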
